A study of Drosophila melanogaster with 6 samples.

Results

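The regions described here held peaks of both Ey-Dam and Su(H)-Dam from medulla neuroblasts, and were ranked by how differently the 2 factors placed them. Each of 4 peak lists, 2 replicates of Ey-Dam and 2 of Su(H)-Dam, carried 1 score per peak, and every score was turned into a percentile, the percent of peaks of the same list with a lower score. Peaks of the 4 lists that shared at least 1 bp were merged, which gave 2217 regions, and 783 of these held a peak of every list. For each of the 783 regions the best peak of each list was kept, and the mean of the 2 Ey-Dam percentiles was set against the mean of the 2 Su(H)-Dam percentiles. Of the other merged regions, 605 had a peak in 1 list, 521 in 2 lists and 308 in 3 lists, and among those in 2 lists 198 were in both Ey-Dam lists alone and 232 in both Su(H)-Dam lists alone.

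Eyeless (Ey) is a Pax6 transcription factor and one of the temporal factors that medulla neuroblasts of the fly optic lobe express in turn as they age. Suppressor of Hairless (Su(H)) is the DNA-binding protein of the Notch pathway. When Notch is cleaved, its intracellular domain joins Su(H) and the co-activator Mastermind on enhancers, and the best known targets are the E(spl) bHLH repressors and the Bearded family proteins, which inhibit the ubiquitin ligase Neuralized. In DamID a DNA adenine methyltransferase (Dam) fused to a factor methylates GATC sites near the places where the factor sits, and the methylated fragments are then amplified and sequenced.

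All larvae carried UAS-Dcr2, a temperature-sensitive Gal80 (tubG80ts/CyO) and SoxN-Gal4, a driver expressed in medulla neuroblasts. They differed in the transgene under UAS control, which was UAS-Ey-Dam, UAS-Su(H)-Dam or, in the controls, UAS-Dam. Expression was induced at 29 °C for 72 hours, and the optic lobes of a pool of brains from climbing larvae of the third instar made 1 sample. The Dam-only libraries had no peak list of their own and entered only through the ratio of each fusion to Dam alone. Whether the lists share a Dam-only library is not given in the sources used here. Both fusions came from UAS transgenes driven by SoxN-Gal4, so a score does not stand for the occupancy of the endogenous protein. The 4 lists were of similar length, with 1470 and 1509 peaks in the Ey-Dam lists and 1455 and 1461 in the other pair, and no list gave the number of reads behind a peak.

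The sequences below show the Su(H) consensus at 4 regions with higher Su(H)-Dam percentiles and at 1 region with higher Ey-Dam percentiles, and the long Ey consensus at 2 regions with higher Ey-Dam percentiles. Each is the plus strand of the Release 6 (dm6) genome, 5′ to 3′, with the consensus matches in capitals, and none of them touches an annotated exon. The Su(H) consensus was taken as any of 4 words, CGTGAGAA, CGTGGGAA, TGTGAGAA and TGTGGGAA, on either strand, and a match on the minus strand appears as the reverse complement. The first stretch lies next to E(spl)malpha-BFM (chr3R:26010111-26010295), the second upstream of E(spl)m8-HLH (chr3R:26039996-26040068), the third in an intron of pnt (chr3R:23319833-23319914) and the fourth in an intron of Delta (chr3R:19315296-19315343). The numb stretch (chr2L:9442450-9442581) is intronic too, as are those of fz2 (chr3L:19173989-19174044) and caps (chr3L:13254245-13254300).
E(spl)malpha-BFM, 3 Su(H) matches: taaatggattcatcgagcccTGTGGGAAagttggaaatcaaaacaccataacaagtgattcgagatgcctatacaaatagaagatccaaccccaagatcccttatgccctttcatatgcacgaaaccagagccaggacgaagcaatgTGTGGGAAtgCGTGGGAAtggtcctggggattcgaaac
E(spl)m8-HLH, 2 Su(H) matches: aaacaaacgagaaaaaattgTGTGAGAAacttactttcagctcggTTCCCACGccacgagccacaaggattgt
pnt, 2 Su(H) matches: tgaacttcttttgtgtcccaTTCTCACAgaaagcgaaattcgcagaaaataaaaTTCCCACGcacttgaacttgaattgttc
Delta, 1 Su(H) match: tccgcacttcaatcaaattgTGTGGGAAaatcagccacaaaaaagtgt
numb, 2 Su(H) matches: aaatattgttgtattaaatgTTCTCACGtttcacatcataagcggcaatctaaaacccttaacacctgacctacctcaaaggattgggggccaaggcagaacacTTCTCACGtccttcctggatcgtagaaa
fz2, 1 Ey match: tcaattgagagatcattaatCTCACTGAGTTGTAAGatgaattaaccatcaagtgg
caps, 1 Ey match: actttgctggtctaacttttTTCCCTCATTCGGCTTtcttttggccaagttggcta

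As a set, the 783 regions had similar median percentiles in the 4 lists, which does not show whether single regions ranked alike. The median region stood at percentile 62.2 and 65.9 in the Ey-Dam lists and at 62.0 and 62.3 in the Su(H)-Dam lists. The difference, Ey-Dam minus Su(H)-Dam, had a median of 1.18 percentile points over the 783 regions, with quartiles of -10.6 and 14.8 and a range from -85.5 to 74.5. In 318 regions (40.6%) it was under 10 points in size, in 71 it was above 30, and in 71 it was below -30. The Su(H)-Dam replicates placed a region more alike than the Ey-Dam replicates did. The median gap between replicates was 9.19 points for Su(H)-Dam and 18.9 points for Ey-Dam, and Spearman's rho between replicates over the 783 regions was 0.784 and 0.506.

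No region passed the test of the difference between the factors. With limma across all 783 regions (2 libraries against 2, two-sided, Benjamini-Hochberg), 0 regions (0%) had an adjusted p under 0.05, and the lowest adjusted p was 0.106. At an unadjusted p under 0.05 there were 124 regions, of which 66 were higher in Ey-Dam and 58 higher in Su(H)-Dam. An exact permutation test of 2 against 2 cannot give a two-sided p below 0.333. The 24 regions described next were chosen for large differences in these same lists, so calls falling among them add no support for them. The same limma test called 9 regions on normal scores and 14 on the log2 score over the list's median, all of them among the 24. Without Ey-Dam replicate 1 it called 46 regions and without Ey-Dam replicate 2 it called 107, of which 19 and 22 were among the 24, with the lone Ey-Dam library assumed to vary as the Su(H)-Dam pair did. Without either Su(H)-Dam replicate it called 0. Both Ey-Dam percentiles lay above both Su(H)-Dam percentiles in 205 regions (26.2%), and both lay below in 156 (19.9%), while the groups overlapped in the other 422. The orders given below are therefore descriptions of these 4 lists.

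**Figure D1:**
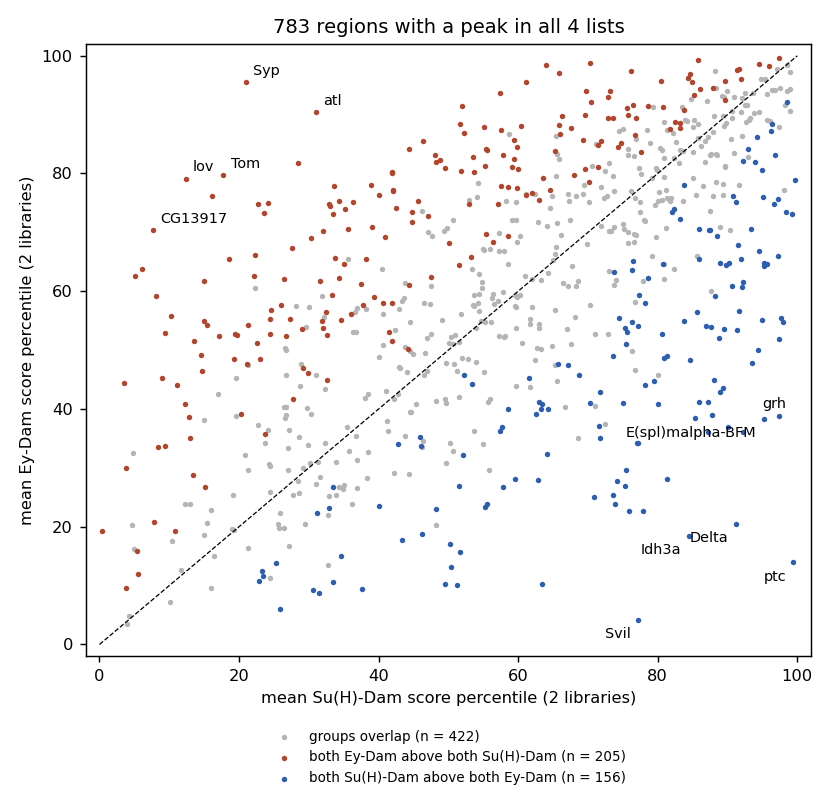
Mean Ey-Dam score percentile against mean Su(H)-Dam score percentile, in percent of each library's own peak list, 1 point per region (783 regions, 2 libraries a factor). Red points are the 205 regions where both Ey-Dam percentiles lay above both of Su(H)-Dam, blue points the 156 where both lay below, grey points the 422 where the groups overlapped, and the dashed line marks equal means; Syp and ptc lie farthest from it.

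At the Ey-Dam extreme stood regions in Syp, lov, CG13917 and Tom. The region farthest toward Ey-Dam covered a 5′ UTR of Syp (chr3R:20778096-20780167), which encodes an RNA-binding protein that rises with neuroblast age. Its percentiles were 94.4 and 96.8 in Ey-Dam and 17.0 and 25.1 in Su(H)-Dam, a difference of 74.5 points (SE 10.4; limma, adjusted p = 0.106). It was thus near the top of both Ey-Dam lists and in the lowest part of both Su(H)-Dam lists. An intron of lov, a BTB-domain factor, held 2 of the 12 regions. The first (chr2R:25090113-25092407) stood at 65.9 and 92.4 in Ey-Dam and at 1.86 and 22.9 in Su(H)-Dam, and the second (chr2R:25118684-25121818) at 84.7 and 65.1 against 27.8 and 20.5. An intronic region of CG13917 (chr3L:1584902-1587245) had percentiles of 82.9 and 57.7 in Ey-Dam and of 13.7 and 1.64 in Su(H)-Dam. Ey-Dam replicates differed by over 25 points at the first lov region and at CG13917. A region was named at an extreme only if its groups did not overlap.

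Tom, a Bearded family gene, was at the Ey-Dam extreme through a short region over its coding exon (chr3L:14969249-14969635). Percentiles there were 68.9 and 90.5 in Ey-Dam and 20.8 and 14.8 in Su(H)-Dam, a difference of 61.9 points. The rest of the 12 included a 5′ UTR of atl, the atlastin GTPase that fuses endoplasmic reticulum membranes, next to Wsck, with a difference of 59.4 points. A 5′ UTR of smg, the translational repressor Smaug, next to CG5087, followed with 57.4 points, and introns of pyd, a junction scaffold protein of the ZO-1 family, shn, a zinc finger factor of BMP signalling, and PRAS40, a regulator of the TOR kinase, with 53.2, 52.1 and 51.2 points. In smg the Ey-Dam replicates were far apart, at 44.8 and 80.3, against 9.97 and 0.274 in Su(H)-Dam. In shn all 4 lists were tighter, at 71.4 and 78.1 against 28.4 and 17.0. Another 2 of the 12 (chr3L:22429460-22431195 and chr2R:13032698-13033339) had no annotated gene within 1000 bp, with differences of 60.1 and 57.6 points. None of the 12 windows of 1000 bp held a match to the Su(H) or the Ey consensus. Over all regions the shares with a match were 14.4% and 3.58%, at which 12 windows would hold few or none.

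At the Su(H)-Dam extreme stood regions next to ptc, Svil, Delta, grh and members of the E(spl) complex. The largest difference of all was next to ptc (chr2R:8646242-8650537), which encodes the Hedgehog receptor Patched. Percentiles were 5.92 and 21.9 in Ey-Dam and 99.3 and 99.5 in Su(H)-Dam, a difference of -85.5 points (SE 11.1; limma, adjusted p = 0.106). The 4 lists met there in a single base, because the peak of Ey-Dam replicate 1 (chr2R:8646678-8648308) ends where the peak of both Su(H)-Dam lists (chr2R:8648308-8650537) begins. Ey-Dam replicate 2 had a peak with the same ends as the Su(H)-Dam peak, at percentile 21.0, and its best peak, at 21.9, lay farther off. The ptc region was therefore not formed when peaks had to share 50% of the shorter one, and its value sets neighbouring peaks side by side. A region over a 5′ UTR of Svil (chr3L:2387206-2388804), which encodes an actin-binding supervillin protein, and close to Mzt1 and CG32298, had percentiles of 2.31 and 6.16 in Ey-Dam and of 74.8 and 79.6 in Su(H)-Dam, and its adjusted p was 0.106 too. All other regions named at the extremes had an adjusted p between 0.151 and 0.242 in the limma fit.

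Delta, the Notch ligand, had 3 regions in its introns, and they were unlike in this comparison. The one farthest from the start of the gene (chr3R:19313679-19315896), which holds the single Su(H) match printed above, had percentiles of 9.66 and 31.3 in Ey-Dam and of 88.6 and 93.7 in Su(H)-Dam, a difference of -70.6 points. The one nearest the start (chr3R:19324472) was high in all lists but higher in Su(H)-Dam, at 66.9 and 79.3 against 98.6 and 99.8. Between them, a region with 69.7 and 82.7 in Ey-Dam and 70.6 and 74.9 in Su(H)-Dam showed overlapping groups. The map of the Delta locus shows the 3 positions in this order.

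Other regions at this extreme lay next to genes of several kinds. The grh intron, in a gene for a late neuroblast transcription factor, stood at 30.8 and 46.9 in Ey-Dam and at 99.7 and 95.2 in Su(H)-Dam and held 1 Su(H) match. A 5′ UTR of ham, a PRDM-type zinc finger factor of neural progenitors, stood at 4.90 and 51.3 against 76.7 and 85.9 and held 2 Su(H) matches. The Ey-Dam replicates differed by more than 40 points at ham and at LRP1 (14.4 and 57.7 against 93.4 and 91.1). An intron of Dark, the fly Apaf-1 homologue, and a 5′ UTR of Idh3a, an isocitrate dehydrogenase subunit, next to the co-repressor CoRest, had differences of -53.1 and -66.0 points. The intronic region of sim, a bHLH-PAS factor, had -53.1 points but was joined like that of ptc, through a single base (chr3R:13069000). Both Ey-Dam lists and Su(H)-Dam replicate 1 had a peak with the same ends to one side of it, at 14.6, 5.83 and 12.3, and only the Su(H)-Dam lists had peaks on the other side, at 56.2 and 70.5. Over the common base the difference at sim was -31.2 points. In the other 22 regions at the extremes the 4 lists shared at least 365 bases. One region of the 12 (chr3R:25633824-25636605) had no annotated gene within 1000 bp, and its percentiles were 41.6 and 32.2 against 89.0 and 91.1. The LRP1 window also held 1 Su(H) match. Those of ptc, Svil, Idh3a, Dark, sim, E(spl)m4-BFM and the region without a gene held none.

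**Figure D2:**
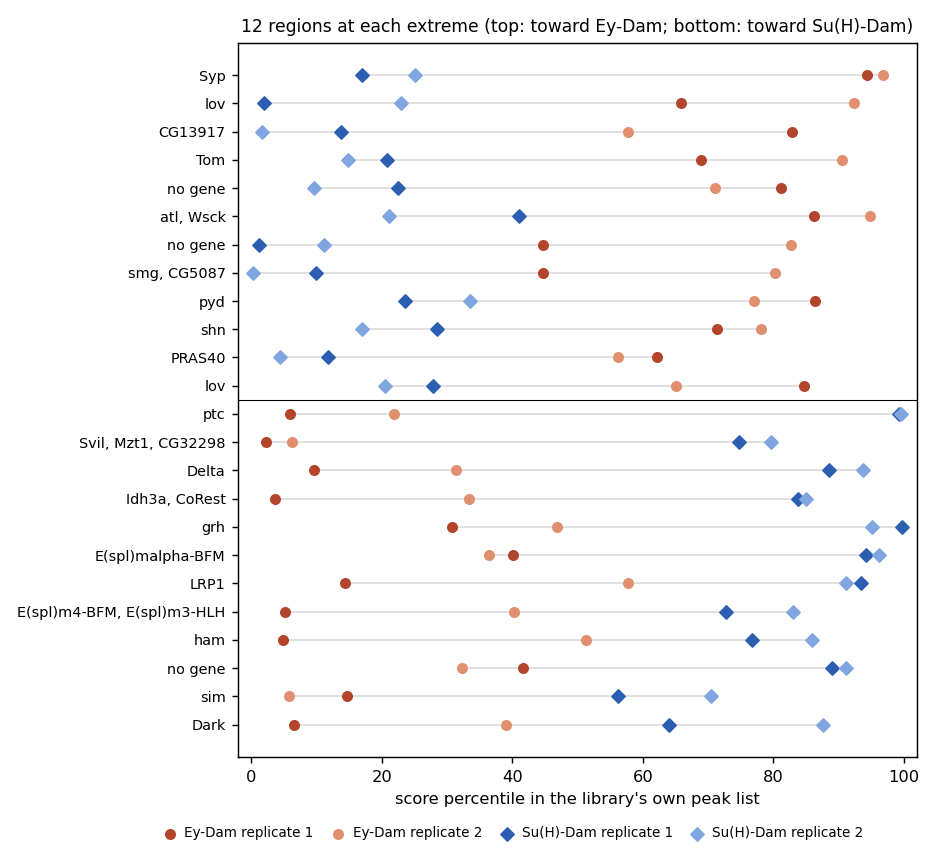
Score percentile of the 12 regions at each extreme in the 4 libraries (circles Ey-Dam, diamonds Su(H)-Dam), with regions in rows named by genes within 1000 bp. Rows above the line are those toward Ey-Dam, from Syp at 74.5 points, and rows below it those toward Su(H)-Dam, from ptc at -85.5 points; a grey line joins the lowest and the highest library of a region.

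Genes of the E(spl) complex and the Bearded families were mostly toward Su(H)-Dam. Of 18 genes, 11 had a region within 1000 bp, and of their 12 regions 9 were higher in Su(H)-Dam, 3 were higher in Ey-Dam and 0 overlapped, against 19.9% and 26.2% of all 783 regions. The median difference was -28.3 points, against 1.18 over all regions. The list was drawn up as Notch targets with earlier results of these data known, so its direction is a description. The lowest was the region next to E(spl)malpha-BFM (chr3R:26008741-26010387), a Bearded family gene, at 40.1 and 36.4 in Ey-Dam and 94.2 and 96.2 in Su(H)-Dam. Its window held 5 Su(H) matches, more than any other of the 783, of which the 3 printed above lie within the peaks and the other 2 just beyond their end.

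Within the complex the regions were not alike. The region between E(spl)m4-BFM and E(spl)m3-HLH (chr3R:26022776-26024402) stood at 5.17 and 40.2 in Ey-Dam and at 72.7 and 83.0 in Su(H)-Dam. Both regions of E(spl)mbeta-HLH, a bHLH repressor, were higher in Su(H)-Dam, by 43.3 and 32.4 points, and the region of E(spl)m5-HLH by 51.0 points. The region of E(spl)m8-HLH, whose pair of Su(H) matches on opposite strands is printed above, stood at 40.1 and 66.1 in Ey-Dam and at 69.7 and 81.5 in Su(H)-Dam. In contrast the region over E(spl)mgamma-HLH and next to E(spl)mdelta-HLH was high in every list, at 91.2 and 93.8 in Ey-Dam and at 88.3 and 91.1 in Su(H)-Dam. Its difference was 2.79 points, and on the log2 score over the list's median the direction turned (-0.0188). Hey, a bHLH factor outside the complex, stood at 56.9 and 72.6 against 85.8 and 92.1.

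Some genes lay near regions of both kinds. In the Bearded cluster the coding exon of Tom was toward Ey-Dam, as given above, whereas a region upstream of it (chr3L:14968045-14968682) stood at 19.3 and 63.3 in Ey-Dam and at 85.2 and 89.3 in Su(H)-Dam, a difference of -45.9 points. These 2 regions are under 1 kb apart. A region next to Brd, also higher in Ey-Dam, stood at 42.9 and 62.4 against 18.8 and 20.5. Of 854 protein-coding and noncoding genes within 1000 bp of a region, 20 had at least 1 region on each side. Only a gene with 2 or more regions could be among the 20, and the number of such genes was not counted. Some of the 20 were neighbours that shared the same regions. Besides Tom, the 20 included Svil (34.6 and -73.0 points), LRP1 (43.7 and -56.2) and neur (38.8 and -42.1).

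**Figure D3:**
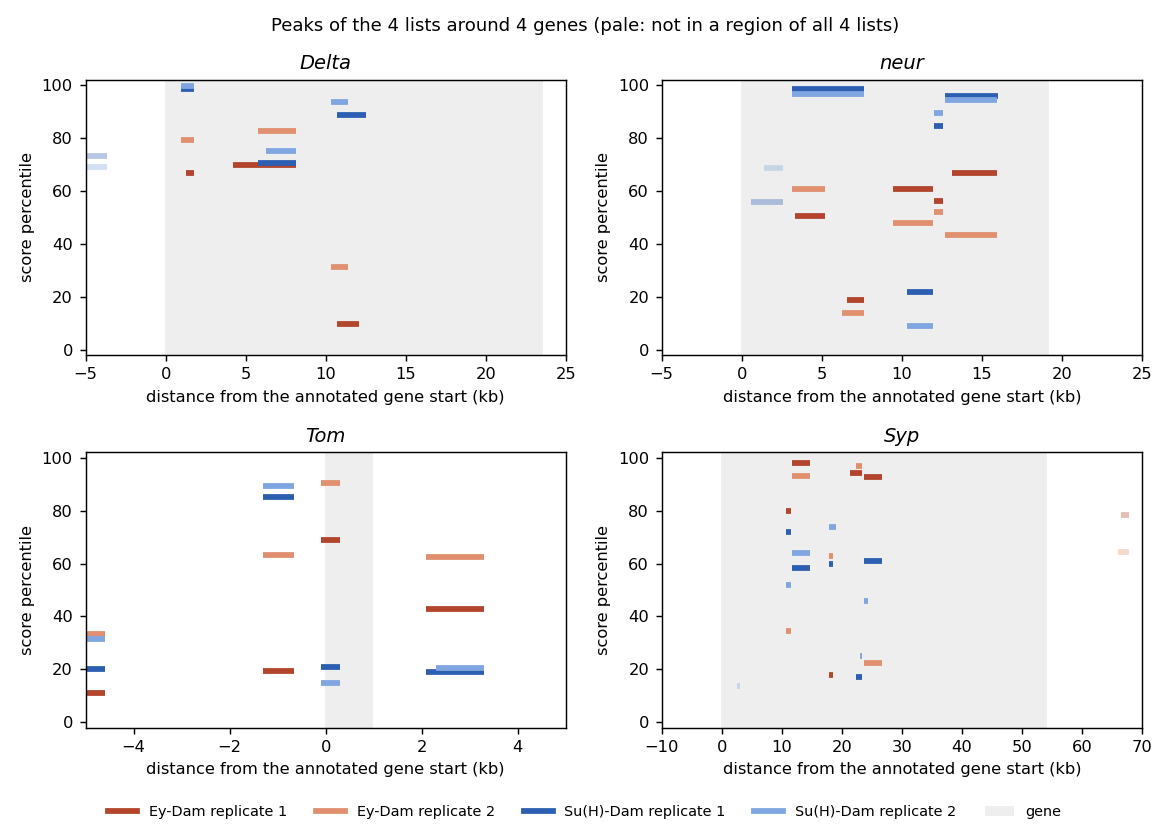
Peaks of the 4 lists around Delta, neur, Tom and Syp, drawn as bars from their start to their end along the distance from the annotated gene start (kb) and placed at their score percentile; the gene is shaded and pale bars are peaks outside the 783 regions. In Delta the Su(H)-Dam bars lie above the Ey-Dam bars at both ends of the row of 3 regions, and in Tom the order of the factors changes between the upstream region and the coding exon.

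Notch pathway genes other than the targets were mixed. Of 25 genes, 7 had a region, and of their 14 regions 3 were higher in Ey-Dam, 7 higher in Su(H)-Dam and 4 overlapped, against 26.2% and 19.9% of all regions in the same directions. The median was -13.2 points, but it was -1.26 with genes at 0 bp and at up to 5000 bp and -25.2 with the highest region of each gene. The ubiquitin ligase gene neur, whose product promotes endocytosis of Delta, had 4 intronic regions. Of these, 3 were higher in Su(H)-Dam (chr3R:9031808 at 50.4 and 60.6 against 98.6 and 96.6, chr3R:9023455 at 66.9 and 43.3 against 95.7 and 94.2, and chr3R:9026892 at 56.3 and 51.8 against 84.4 and 89.4). The 4th (chr3R:9027531) was higher in Ey-Dam, at 60.7 and 48.0 against 21.9 and 9.03. The receptor gene N had a region with 75.1 and 56.9 in Ey-Dam and 97.6 and 96.9 in Su(H)-Dam, and another whose groups overlapped (77.8 and 88.5 against 69.7 and 81.9). The aquaporin-family gene bib was higher in Su(H)-Dam by 25.2 points.

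The ligand gene Ser and the Notch inhibitor numb were on the Ey-Dam side. Ser stood at 79.1 and 96.2 against 67.6 and 67.7. The first region of numb (chr2L:9441353-9445087), which holds the 2 Su(H) matches printed above, stood at 96.7 and 91.3 in Ey-Dam and at 67.1 and 72.4 in Su(H)-Dam, while the groups of the second overlapped, with a difference of -1.26 points. The glycosyltransferase gene fng was high in the second replicate of both factors, at 78.8 and 96.9 against 75.3 and 94.7. No region lay within 1000 bp of Su(H) itself.

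Medulla temporal factors were found on both sides. Of 15 genes, 10 had a region, and of their 22 regions 5 were higher in Ey-Dam, 5 higher in Su(H)-Dam and 12 overlapped, which is 22.7% each way against 26.2% and 19.9% of all regions. The median was 2.19 points, and its sign turned when 1 library was left out (-3.99 to 7.52) and with genes at 0 bp (-0.06). The largest difference toward Ey-Dam was at slp1, a forkhead factor that follows Ey in the temporal series, in an intergenic region (chr2L:3823126-3826234) with 92.2 and 76.2 in Ey-Dam and 53.2 and 35.7 in Su(H)-Dam. A second region next to slp1 (chr2L:3826792-3828398) was low in every list, at 19.8 and 1.66 against 23.5 and 22.1. Both regions of slp2 showed overlapping groups, at 59.3 and 32.2 against 27.0 and 35.0 and at 41.1 and 72.2 against 61.0 and 47.6. So of 4 regions within 1000 bp of slp1 or slp2, 1 was higher in Ey-Dam, 1 in Su(H)-Dam and 2 overlapped. Regions farther from the 2 genes were not counted here.

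The ey gene itself had 3 intronic regions. One (chr4:698705-701724) was higher in Su(H)-Dam, at 44.4 and 42.7 in Ey-Dam against 88.3 and 90.4, and the groups of the other 2 overlapped. The zinc finger gene opa had 4 regions, of which 1 was higher in Ey-Dam (66.2 and 42.3 against 33.0 and 9.58), 2 were higher in Su(H)-Dam (by 20.2 and 26.4 points) and 1 overlapped. The zinc finger gene erm was on the Ey-Dam side in 2 of its 3 regions, by 36.2 and 6.89 points. The region of gcm, a glial determinant that ends the temporal series, was higher in Ey-Dam by 29.3 points. Of the 4 regions of hth, a homeobox gene of the youngest neuroblasts, 1 was higher in Su(H)-Dam by 21.2 points and 3 overlapped, and the regions of D, scro and hbn overlapped too, at differences of 3.50, 15.7 and -5.91 points.

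Other neuroblast genes were also found on both sides. Of 22 genes, 20 had a region, and of their 31 regions 9 were higher in Ey-Dam, 10 higher in Su(H)-Dam and 12 overlapped, or 29.0% and 32.3% against 26.2% and 19.9% of all regions, with a median of -1.39 points. The extremes of this list were Syp and grh, given above. Syp had 5 regions, of which 2 were higher in Ey-Dam (by 74.5 and 34.4 points) and 3 overlapped. Imp encodes an RNA-binding protein of a stage before that of Syp in larval nerve cord neuroblasts. A region of Imp was higher in Su(H)-Dam, at 78.8 and 68.9, while its Ey-Dam replicates were far apart at 0.340 and 47.4. The defining neuroblast genes dpn, ase, wor and insc all had a region and mira had none, and since DamID peaks report binding and not expression they do not test the identity of the cells.

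**Figure D4:**
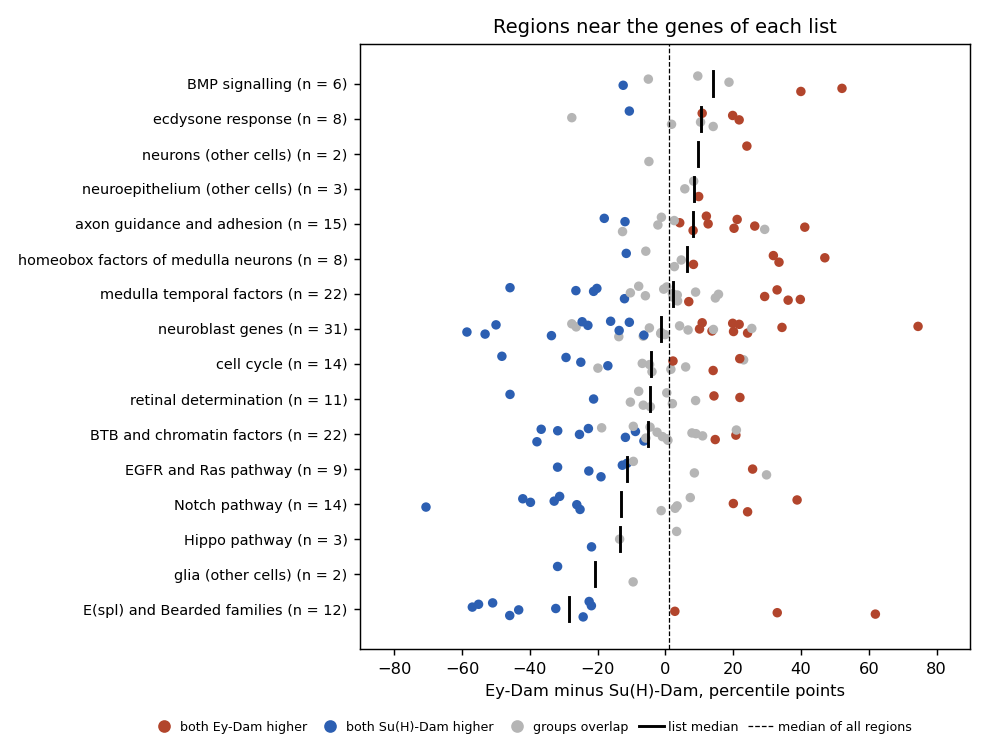
Difference between the mean Ey-Dam and the mean Su(H)-Dam percentile, in points, for each region within 1000 bp of a gene of each list, with lists in order of their median (black bar). Red points are regions where both Ey-Dam percentiles were higher, blue points those where both Su(H)-Dam percentiles were higher, grey points those with overlapping groups, and the dashed line is the median of all 783 regions at 1.18; E(spl) and Bearded family genes have the lowest median at -28.3 and BMP signalling the highest at 14.2.

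The remaining lists were small, and their counts stand against 26.2% of all regions higher in Ey-Dam and 19.9% higher in Su(H)-Dam. Axon guidance and adhesion genes had 15 regions, 8 higher in Ey-Dam and 2 in Su(H)-Dam, with a median of 8.16 points, and they included the netrin receptor genes fra (41.1 points) and unc-5 (26.4), while Dscam2 (-18.0) and Nrt (-11.9) were on the other side. Of 8 regions of homeobox genes of medulla neurons, 4 were higher in Ey-Dam, among them Rx at 33.5 points, and 1 was higher in Su(H)-Dam (ct, -11.6). BMP signalling had 6 regions, with shn at 52.1 points and the receptor genes tkv at 40.0 and put at -12.5. In ecdysone response genes, 3 of 8 regions were higher in Ey-Dam and 1 in Su(H)-Dam, and all 4 belonged to br.

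BTB and chromatin factors and the EGFR and Ras pathway had more regions on the Su(H)-Dam side, against the same shares of 19.9% and 26.2% over all regions. BTB and chromatin factors had 22 regions, of which 8 were higher in Su(H)-Dam (ab, -37.9, and ttk, -36.6, lowest, although the longest stretch common to the 4 lists at ttk gave 1.90) and 2 in Ey-Dam (jing, 20.8, and lola, 14.7). Of 9 regions of the EGFR and Ras pathway 5 were higher in Su(H)-Dam, with the ETS factor genes pnt (-31.8) and aop (-22.6) lowest, and 1 was higher in Ey-Dam (vn, an EGFR ligand, 25.7). The pnt region, with its 3 Su(H) matches, stood at 13.4 and 33.3 against 57.3 and 53.1. Cell cycle genes had 14 regions, 3 higher in Ey-Dam, with stg at 21.9 points and CycE at 14.1, and 4 in Su(H)-Dam, with Rbf at -48.2 and CycG at -29.3, or 21.4% and 28.6%. Retinal determination genes had 11 regions with 2 on each side (danr, 22.0, and dan, 14.3, against ey, -45.9, and hth, -21.2), and Hippo pathway genes had 3, of which fj was higher in Su(H)-Dam by 21.8 points. Genes typical of other cells gave few regions, 2 for neurons (elav higher in Ey-Dam by 24.0 points), 2 for glia (1 higher in Su(H)-Dam, the pnt region) and 3 for neuroepithelium (Socs36E higher in Ey-Dam by 9.82 points).

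Matches to the Su(H) consensus were more frequent toward Su(H)-Dam, given here as counts with no test. In windows of 1000 bp around the centre of the bases covered by all 4 lists, 113 of 783 regions (14.4%) held at least 1 match. The share was 21.8% of the 156 regions higher in Su(H)-Dam and 11.2% of the 205 higher in Ey-Dam, and 28% and 10% of the 50 regions at each extreme. Regions with 0, 1 and 2 or more matches numbered 670, 96 and 17, and their median differences were 2.24, -4.59 and -19.7 points. The word TGTGGGAA was in 13.5% of the windows on the Su(H)-Dam side and in 3.41% of those on the Ey-Dam side, against 6.51% of all windows, whereas TGTGAGAA was in 4.49% and 5.37%. Both of the largest differences toward Su(H)-Dam, at ptc and at Svil, had no match in the window. At ptc, however, the window was centred on the single base common to the 4 lists and left out most of the Su(H)-Dam peak.

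**Figure D5:**
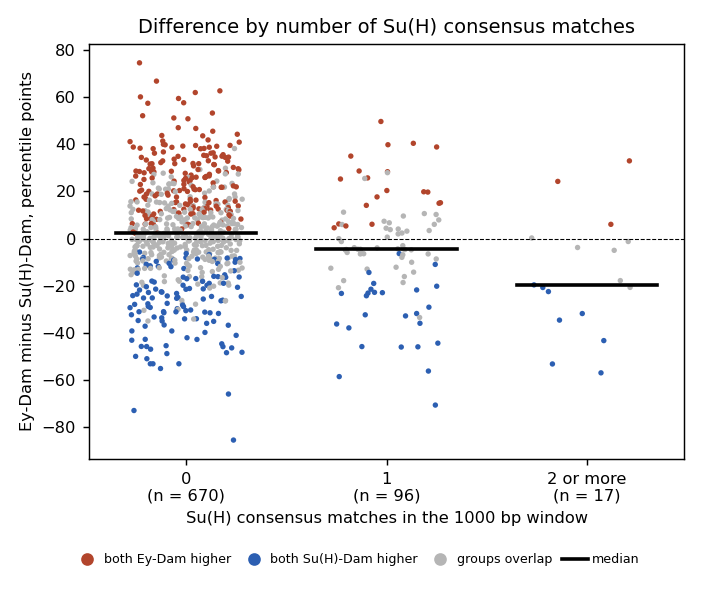
Difference between the mean Ey-Dam and the mean Su(H)-Dam percentile, in points, for regions with 0, 1 and 2 or more Su(H) consensus matches in their 1000 bp window, 1 point per region, with the median as a black bar. The medians are 2.24, -4.59 and -19.7 points over 670, 96 and 17 regions, and the points of the 3 classes overlap widely.

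The long Ey consensus was rare. It was in 28 windows (3.58% of all), in 4.88% of those higher in Ey-Dam and in 1.92% of those higher in Su(H)-Dam, and in 1 and 3 of the 50 regions at each extreme. The median difference was 3.84 points with a match and 1.10 without. Of the regions printed above, that of fz2, a Wnt receptor gene, stood at 45.7 and 51.3 in Ey-Dam and at 30.6 and 8.01 in Su(H)-Dam, and that of caps, a leucine-rich repeat cell surface protein, was high in all lists, at 95.4 and 96.9 against 91.3 and 92.5. No Ey match shared a base with a Su(H) match in these windows.

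Other properties of the 2 sides were compared without a test. The median GC content of the windows was 43.0% for regions higher in Ey-Dam and 42.6% for those higher in Su(H)-Dam, and the median number of GATC sites per window was 3.0 and 4.5. Region lengths had medians of 2288 and 1954.5 bp. The centre lay in an intron in 51.2% and 48.7% of the regions and between genes in 36.1% and 36.5%. By chromosome arm, the X had 25 regions higher in Ey-Dam and 30 in Su(H)-Dam of 128, with a median difference of -3.25 points. These were 19.5% and 23.4% of the regions on the X, against 26.2% and 19.9% of all regions. Arm 3R gave 18 (36%) of the 50 regions most toward Su(H)-Dam and held 23.6% of all regions. The authors' lists of reproducible peaks were made from the same libraries, so they are not independent of the sorting into sides. In those lists Ey-Dam had a peak at 92.7% of the regions higher in Ey-Dam and at 64.1% of those higher in Su(H)-Dam. Su(H)-Dam had one at 53.7% and 91.0%. Both factors had such a peak at 504 of all 783 regions (64.4%), and neither had one at 96.

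Regions at which both factors ranked high were a further set. In 14 regions every list was at or above percentile 90. The top region covered Ets65A, an ETS factor gene (chr3L:6102485-6108383), at 97.3 and 99.5 in Ey-Dam and at 97.5 and 99.4 in Su(H)-Dam. The next was at E2f1, the cell cycle transcription factor (chr3R:21642089-21645970), at 99.4 and 99.9 against 97.2 and 97.7. Others lay in an intron of RapGAP1, a GTPase activator for Rap1, in an intron of hng3 near emc, an Id-type inhibitor of bHLH factors, and in a 5′ UTR of pum, the gene of the RNA-binding protein Pumilio.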

How the data were processed

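DamID-seq was done on larval optic lobes with 2 libraries for each transgene. With damidseq_pipeline, which runs Bowtie2, the authors mapped reads to dm6 and took the log2 ratio of fusion to Dam alone per GATC fragment. Peaks of single replicates came from find_peaks (FDR 0.01). The deposited score of a peak is the value in these lists, and all 11790 peak ends lay within 4 bp of a GATC site. Scores ranged over 1.20 to 7.89 and differed in median between lists (5.14, 4.42, 3.22 and 2.96), so only the rank in a list was used. There were 254 to 333 distinct scores a list, so peaks share percentiles, and within a list Spearman's rho between score and peak length was 0.182 to 0.327. A percentile is relative to the list's own peaks and does not measure how much of a factor is bound. Depth is unknown from the lists, so no counting interval is given. The authors' reproducible lists carry a scaled score that was not used, only the positions.

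Regions were tested with limma 3.58.1 in R 4.3.3 on percentiles. The same fit was run on simulated data in which all 4 libraries varied alike and independently. The real libraries did not, so that run does not vouch for the test here. Genes came from Ensembl release 115 without transposable elements, within 1000 bp of a region. Of 305 listed symbols, 2 were unmatched, being second names of genes already listed. The text names the 12 regions at each extreme whose groups do not overlap, every region of temporal factor, Notch, E(spl) and Bearded genes, and up to 2 per direction from other lists; regions high in all 4 lists and those of printed sequences were named after their values were seen, and 1 result under this rule is not reported here. The members and lists were chosen with earlier results of these data known. Replicates are said to be biological. Alternatives covered percentile scale, overlap, region building, thresholds, leaving out each replicate, a replicate block and gene distance. The authors' tables of overlapping peaks were not used.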

Additional observations from a re-analysis of the deposited data

How the results depend on the processing

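On other scales or region definitions (midrank percentile, peaks joined only if they share 50% of the shorter one, stretches covered by all 4 lists, the higher-scored 75% of each list, the mean of a list's peaks, regions with 1 peak in each list) limma called 0 regions again, with 76 to 133 at an unadjusted p under 0.05. It called 9 on normal scores and 14 on the log2 score over the list's median. Leaving out 1 library gave 0 to 107 calls, with 46 without Ey-Dam replicate 1, 107 without Ey-Dam replicate 2 and 0 without either Su(H)-Dam replicate; the lone library is then assumed to vary like the other group. With the replicate block 0 regions were called and 180 had an unadjusted p under 0.05, and deviations of libraries with the same number correlated at 0.498 over regions, but the labels give only a number. The count of regions whose groups do not overlap was 318 to 387 in the settings with all 4 libraries, except 240 (103 higher in Su(H)-Dam) in the higher-scored 75%, where 537 regions were tested. That setting left 3 temporal factor regions and 1 E(spl) or Bearded region higher in Ey-Dam. Regions overlapping the gene itself (0 bp) left 5 E(spl) or Bearded regions higher in Su(H)-Dam, genes at up to 5000 bp gave 8 temporal factor regions higher in Ey-Dam, and the highest region of a gene gave 3 and 2 for temporal factors and 1 and 4 for the Notch pathway, higher in Ey-Dam and in Su(H)-Dam. Leaving out 1 library, list medians ranged over -35.3 to -23.9 for E(spl) and Bearded genes, -15.4 to -10.3 for the Notch pathway and -3.99 to 7.52 for temporal factors. Of the 24 regions at the extremes, which were chosen for large differences, the higher-scored 75% held 3 and the 50% overlap 22 (not ptc and sim). Among the 97 named regions these changed sign, and the cause was not tested. On the log2 score, changes were at erm (-0.0136), fng (-0.0114), hth (-0.0041), Delta (-0.0049), E(spl)mdelta-HLH (-0.0188) and opa (0.0054), in log2 units. On normal scores numb changed (0.0345), with the mean of peaks erm (-3.40 points), and with stretches covered by all lists ttk (1.90 points). Leaving out 1 library, the difference in points ranged over -10.4 to 17.6 at erm (chr2L:1960279), -13.2 to 17.9 at slp2 (chr2L:3839207), -8.17 to 5.65 at numb (chr2L:9453746), -12.4 to 0.62 at hbn (chr2R:20959647), -1.83 to 8.83 at D (chr3L:14179292), -6.87 to 12.6 at fng (chr3L:20948228), -3.91 to 35.2 at scro (chr3L:24742063), -1.83 to 5.94 at hth (chr3R:10570917), -22.6 to 1.90 at hth (chr3R:10579589), -3.07 to 9.97 at Delta (chr3R:19318085), -16.1 to 15.1 at opa (chr3R:4857719), -14.7 to 15.4 at ey (chr4:702822) and -22.1 to 6.34 at ey (chr4:707405). Only 2 libraries a factor, 4 lists without read counts and Ey-Dam replicates that differ by a median of 18.9 points limit the precision.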
